A study of Lymantria dispar dispar and Lymantria dispar asiatica with 30 samples.

Results

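Transcript levels of 3 genes that act in neuronal signalling and intracellular calcium release were examined through pupal development of the spongy moth (Lymantria dispar), out of the 19654 genes in the deposited table. The 3 genes were taken by their row names in that table: 'Lda.4585', annotated as the kainate-type glutamate receptor GRIK2; 'Lda.20152', annotated as the dipeptidyl peptidase-like protein DPP6; and 'Lda.15516', annotated as the inositol trisphosphate receptor ITPR. They did not come to the set in the same way. DPP6 was listed by the study for its strain term in these same pupae and ITPR for its strain and strain × day terms, so the differences between strains of both genes, and the strain × day pattern of ITPR, are given as descriptions with no test. GRIK2 was listed from an association with forewing length in other moths, and its strain comparisons are tested. That association was nominal and did not pass the study's adjustment for multiple comparisons.

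The pupae were females of 2 colonies. ASM pupae were L. d. asiatica from the source labelled RM, in the 34th laboratory generation, on a diet with 0.21 g of iron phosphate per litre. ESM pupae were L. d. dispar from the source labelled CT, in the 32nd laboratory generation, on a diet with 0.13 g per litre. Pupae were taken on days 1, 3, 5, 8 and 11 after pupation, with 3 pupae homogenised whole and separately for each strain and day, giving 30 poly(A) RNA libraries. Each strain is 1 colony on its own diet, so strain, colony and diet cannot be told apart, and reads of both strains were mapped to a draft ASM genome, whose part in any strain difference was not tested. In RNA of whole pupae, fewer cells of a type and less RNA per cell cannot be told apart either.

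Kainate receptors are ligand-gated cation channels that open on binding glutamate, which in insects is the transmitter of the neuromuscular junction as well as a transmitter in the brain. DPP6, known from mammals, has lost peptidase activity and is an auxiliary subunit of A-type voltage-gated potassium channels, which set how readily a neuron fires again. The inositol trisphosphate receptor is a calcium channel of the endoplasmic reticulum that opens after phospholipase C has been activated, and in Drosophila it is known for its roles in neurons and in flight.

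The files hold variance-stabilised values, a scale on which equal steps are not equal folds. Counts were therefore recovered from them, and levels are given below as normalised read counts (the count divided by the library's size factor), while tests were run on the variance-stabilised units as deposited. Recovered totals, approximate and rounded, ranged from 2630000 to 10700000 reads per library, with a median of 5510000 in ASM and 4780000 in ESM. Pearson's r between replicate libraries lay between 0.933 and 0.984. Some libraries were less like their replicates than these were like each other, among them ASM day 5 replicate 2 (r of 0.933 and 0.948 against 0.967), ASM day 11 replicate 3 (0.945 and 0.940 against 0.972) and ESM day 1 replicate 1 (0.948 and 0.951 against 0.981). ASM day 1 replicate 1 alone carried the larval/pupal rigid cuticle protein 66-like, at 157 normalised reads where the next library had 3.42. Genes are called at a Benjamini-Hochberg adjusted p below 0.05 from limma across 19652 genes, and n is 3 pupae for every SD given. Where groups of 3 pupae are said to overlap or to lie apart, this describes their ranges and is not a test. The share of all genes whose groups lie apart is not given here. Sex-specific storage protein 1, a female-abundant protein of moths, was at 0 in 1 of the 30 libraries, a day 11 ESM pupa. All ESM pupae of that day were nearly without it, at 0, 0.67 and 0.58 normalised reads. Its mean went from 95.7 on day 1 to 0.41 on day 11 in ESM and from 49.5 to 12.3 in ASM, so its level changed with the day.

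GRIK2 transcripts rose several-fold from the first day of the pupal stage to day 8 in both strains. In ASM the day 1 mean was 185 ± 11.1 normalised reads (SD, n = 3) and the day 8 mean 994 ± 319, a ratio of 5.37. In ESM the same means were 158 ± 22.2 and 887 ± 274, a ratio of 5.60. On day 11 the level was still 741 ± 92.8 in ASM but 341 ± 53.3 in ESM.

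The single ASM pupae had 182, 176 and 197 normalised reads of GRIK2 on day 1. On day 3 they had 260, 309 and 242. All of the day 3 pupae of ASM were above all of its day 1 pupae. On day 5 the ASM values were 281, 740 and 286, so that replicate 2 stood well above the other two. On day 8 they were 790, 1361 and 830, and on day 11 they were 685, 689 and 848. Days 8 and 11 overlapped in ASM, and every pupa of both days lay above every ASM pupa of days 1 and 3.

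The ESM pupae had 167, 175 and 133 normalised reads of GRIK2 on day 1 and 141, 133 and 239 on day 3. These groups overlapped, with replicate 3 of day 3 the highest. On day 5 ESM had 418, 737 and 332, each above every ESM pupa of day 3. On day 8 it had 1086, 1000 and 575, and on day 11 it had 387, 282 and 353. All 3 ESM pupae of day 11 were below all 3 of day 8 and above all 3 of day 1.

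**Figure D1:**
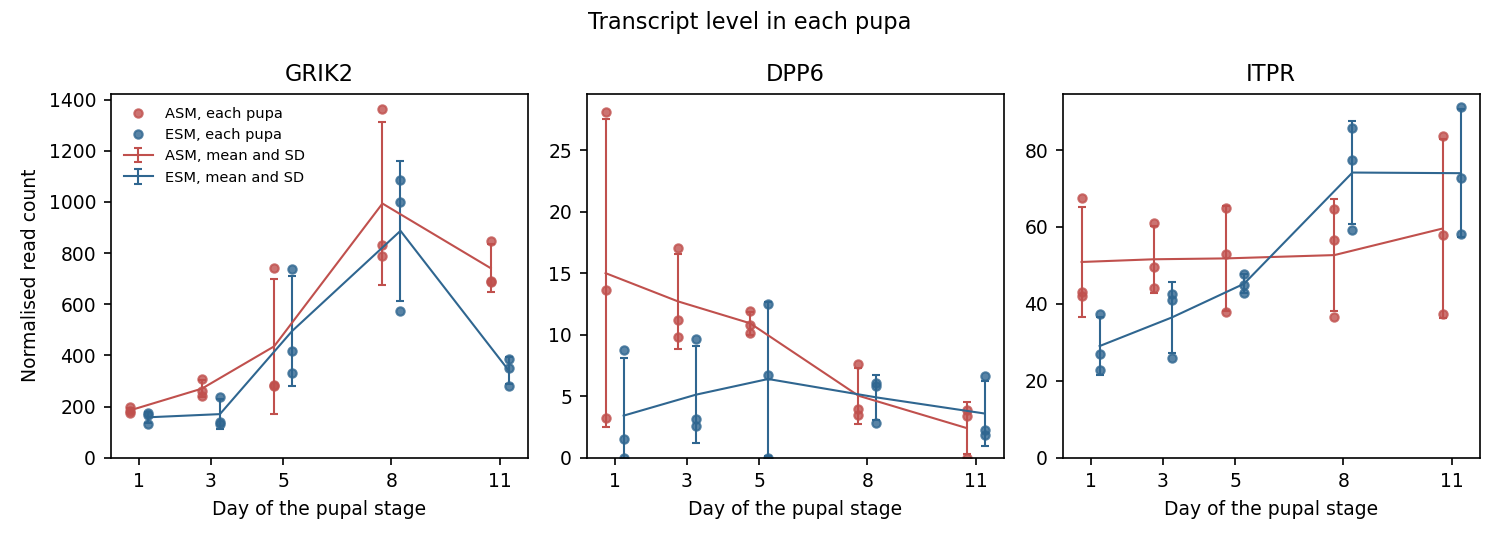
Normalised read count (vertical axes, linear from 0) of GRIK2, DPP6 and ITPR against the day of the pupal stage, with 1 point for each pupa and lines through the group means with SD bars (n = 3; ASM red, ESM blue, set slightly apart at each day). GRIK2 peaks on day 8 in both strains at means of 994 and 887 and stays higher in ASM on day 11, DPP6 stays below 30 throughout, and ITPR is level in ASM but climbs in ESM.

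The change of GRIK2 over days was called when averaged over the strains (adjusted p = 3.2e-09, limma) and within each strain (2.7e-06 in ASM and 7.9e-07 in ESM). Changes over days were common in these pupae: 70.4% of the genes tested were called over both strains, 57.0% in ASM and 56.2% in ESM. Day means of GRIK2 spanned 3.64 variance-stabilised units between days 1 and 8, where the median gene spanned 1.16, and 89.2% of the genes tested had a smaller span. This ranking is not one of folds, since spans in these units depend on the count. A doubling is 0.98 units from 10 reads, 1.65 from 100 and 1.13 from 1000.

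By steps between neighbouring days, averaged over the strains, GRIK2 rose by 1.61 ± 0.34 units (SE) from day 3 to day 5 (adjusted p = 0.00087, limma; 12.3% of genes rose at this step) and by 1.51 ± 0.34 units from day 5 to day 8 (adjusted p = 0.00086; 19.4% rose). The step from day 1 to day 3, 0.52 ± 0.34 units, was not called (adjusted p = 0.36; 6.21% of genes rose). GRIK2 then fell by 1.18 units (SE 0.34) from day 8 to day 11 (adjusted p = 0.016; 9.04% fell). That last call was lost without replicate 2 of ASM day 8, the pupa with 1361 normalised reads (adjusted p = 0.057).

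Between strains, GRIK2 was more abundant in ASM than ESM, by 0.60 ± 0.21 units averaged over the 5 days (adjusted p = 0.041, limma; 12.4% of genes were called higher in ASM). The mean normalised count over all days was 525 in ASM and 411 in ESM. This call was near its threshold. It was lost on omission of any 1 of 16 of the 30 libraries (adjusted p from 0.050 to 0.078 in those fits), and also on the log2 scale (0.052) and with voom on recovered counts (0.053), while the estimate stayed positive throughout. From its own DESeq2 analysis of these pupae, the study printed no strain or strain × day value for GRIK2. It printed only those with a p value below 0.05.

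The strains were furthest apart in GRIK2 on day 11. ASM pupae had between 685 and 848 normalised reads on that day and ESM pupae between 282 and 387, a ratio of means of 2.17 with no overlap. The difference was 1.61 ± 0.48 units (adjusted p = 0.0492, limma; 2.53% of genes were called higher in ASM on day 11). Omission of any 1 of 22 libraries took the adjusted p above the threshold, to at most 0.21, and so did the fit of day 11 alone (0.060) and a common library median (0.052).

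On day 1 the ASM values, from 176 to 197, also lay above those of ESM, from 133 to 175, but closely so, and the difference of 0.40 ± 0.48 units was not called (adjusted p = 0.76, limma). On day 3 the lowest ASM pupa had 242 and the highest ESM pupa 239. The difference of 1.20 ± 0.48 units was not called (adjusted p = 0.12), although it was without replicate 3 of ESM day 3, the pupa with 239 (adjusted p = 0.032). The strains overlapped on days 5 and 8, where the differences were -0.41 ± 0.48 and 0.22 ± 0.48 units and the adjusted p values 0.78 and 0.87. Genes called higher in ASM made up 1.44% of those tested for days 1 and 5 alike, 3.96% for day 3 and 3.54% for day 8. Such counts for a single day moved by more than 1.5 times with the libraries fitted: genes called in either direction on day 11 numbered 963, from 354 to 1818 with 1 library left out, and 169 with that day fitted alone.

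Whether the strains differed in the course of GRIK2 over days was tested by the strain × day interaction, which was not called (adjusted p = 0.25, limma; 3.65% of genes were called). It was called without replicate 2 of ASM day 5 (adjusted p = 0.039), the pupa with 740 normalised reads beside 281 and 286. That pupa also had the highest count of the pupal cuticle protein C1B-like in its group, 404 against 11.1 and 94.0. Among the ESM pupae of day 5, the one with the most GRIK2 had 135 of this cuticle transcript, between 22.5 and 158. The part of stage differences between pupae of 1 day in these values was not tested.

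**Figure D2:**
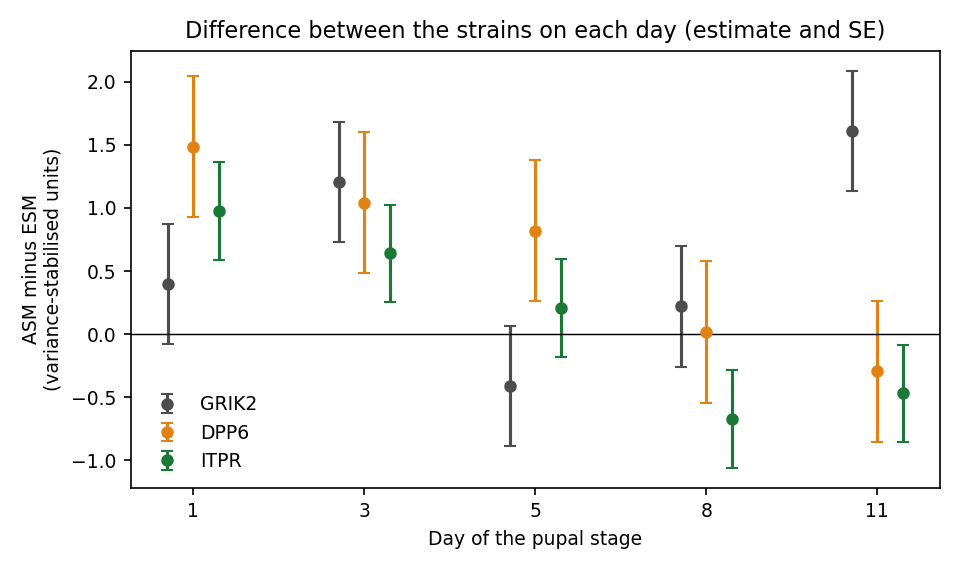
Difference between strains (ASM minus ESM, variance-stabilised units, vertical axis) in GRIK2, DPP6 and ITPR on each day (horizontal axis), as limma estimates with SE bars from the fit of all 30 libraries. GRIK2 lies furthest above 0 on day 11 (1.61), while DPP6 and ITPR, both listed by the study on expression in these pupae, start at 1.49 and 0.98 on day 1 and end at -0.29 and -0.47 on day 11.

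Ranked by mean, the GRIK2 groups ran from ASM day 8 and ESM day 8 through ASM day 11, ESM day 5, ASM day 5, ESM day 11 and ASM day 3 to ASM day 1, ESM day 3 and ESM day 1. Of the 9 pairs of neighbours in this order, 8 overlapped and 1 did not, namely ASM day 3 over ASM day 1.

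DPP6 was scarcely expressed in whole pupae. Its recovered counts were at most 20 reads in any library and 0 in 3 libraries, where a count of 0 allows an expected count of up to 3 reads. All ASM libraries together held 144 reads of DPP6 and all ESM libraries 67. In ASM the level was highest early, and in ESM it stayed low on each day.

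In ASM the pupae had 28.2, 13.7 and 3.22 normalised reads of DPP6 on day 1 and 9.86, 17.1 and 11.2 on day 3. On day 5 they had 10.1, 11.9 and 10.8, the closest agreement of any group. On day 8 they had 3.50, 3.99 and 7.66, and on day 11 they had 3.40, 3.86 and 0. Each ASM pupa of days 3 and 5 was thus above each ASM pupa of days 8 and 11, whereas day 1 spread over nearly the whole range.

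The ESM pupae had 1.56, 8.74 and 0 normalised reads of DPP6 on day 1 and 9.66, 2.58 and 3.17 on day 3. On day 5 they had 6.75, 12.5 and 0, from 3, 6 and 0 reads. On day 8 they had 6.09, 5.85 and 2.81, and on day 11 they had 1.84, 6.66 and 2.30. Every pair of ESM days overlapped.

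The change of DPP6 over days was not called when averaged over the strains (adjusted p = 0.19, limma, against 70.4% of genes called), though a slope on day as a number was (adjusted p = 0.039). In ASM alone the change was called at the threshold (adjusted p = 0.0490), with a mean of 15.0 ± 12.5 normalised reads (SD, n = 3) on day 1 and 2.42 ± 2.11 on day 11. This call was lost on omission of any 1 of 23 libraries (adjusted p up to 0.18, reached without replicate 3 of ASM day 11, the pupa at 0), on the log2 scale (0.093), with voom (0.086) and with the ASM libraries fitted alone (0.053). In ESM it was not called (adjusted p = 0.92). The interaction, which compares the strains in this respect, was not called either (adjusted p = 0.46), so that the course of DPP6 is not shown to differ between strains. The study listed DPP6 for its strain term in these same pupae and stated no model formula. The tests within ASM and of the interaction may therefore not be independent of that choice. In the study's own analysis the strain × day term of DPP6 was nominal and did not pass its adjustment. None of the 4 steps between neighbouring days was called for DPP6, the adjusted p values being 0.81, 0.94, 0.42 and 0.58 in order of day.

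Averaged over days, DPP6 had 9.23 normalised reads in ASM and 4.70 in ESM, a ratio of 1.96 and a difference of 0.61 ± 0.25 units. By day the ratio of the ASM to the ESM mean was 4.38, 2.48, 1.71, 1.03 and 0.67 in order. The day 1 ratio rested on single pupae: it was 2.46 without ASM replicate 1, the pupa at 28.2 that also carried the rigid cuticle transcript, and 19.2 without ESM replicate 2, the pupa at 8.74. The ratio of day 5 ran from 1.14 to 3.24 on omission of 1 library. The groups were apart on day 3 only, with a lowest ASM pupa at 9.86 and a highest ESM pupa at 9.66. These strain values are those for which the study listed the gene. In the order of group means, ASM days 1, 3 and 5 stood at the head and ASM day 11 at the foot, and all 9 pairs of neighbours overlapped.

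ITPR was expressed at a steady level in ASM and climbed in ESM. The ASM means lay between 50.9 ± 14.4 normalised reads (SD, n = 3) on day 1 and 59.6 ± 23.1 on day 11. The ESM means went from 29.0 ± 7.61 on day 1 through 36.5 ± 9.26 and 45.2 ± 2.49 to 74.1 ± 13.5 on day 8 and 74.0 ± 16.6 on day 11, a ratio of 2.55 from day 1 to either of the last days. ESM was thus below ASM at the start of the pupal stage and above it in mean at the end.

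On day 1 the ASM pupae had 43.0, 42.2 and 67.5 normalised reads of ITPR, and day 3 gave 61.1, 49.6 and 44.1. The day 5 pupae had 64.8, 37.8 and 52.9, those of day 8 had 64.8, 36.6 and 56.7, and those of day 11 had 37.4, 57.9 and 83.6. Every pair of ASM days overlapped, and the spread was widest on day 11.

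On day 1 the ESM pupae had 37.5, 26.9 and 22.7 normalised reads of ITPR, and day 3 gave 42.5, 25.8 and 41.1. The day 5 pupae had 45.0, 47.9 and 42.9, those of day 8 had 59.3, 85.8 and 77.3, and those of day 11 had 91.2, 72.6 and 58.1. All 6 ESM pupae of days 8 and 11 were above all ESM pupae of days 1, 3 and 5.

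The change of ITPR over days, averaged over the strains, was called (adjusted p = 0.010, limma, against 70.4% of genes called). Its day means spanned 0.97 units, below the median span of 1.16. No single step was called: the largest, from day 5 to day 8, was 0.46 ± 0.27 units (adjusted p = 0.19). The course within each strain is left without a test, since the study listed ITPR by the way the strains diverged over days.

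As a description, ITPR averaged over days was 53.3 normalised reads in ASM and 51.8 in ESM, a difference of 0.14 ± 0.17 units. By day, ASM minus ESM was 0.98, 0.64, 0.21, -0.67 and -0.47 units in order, with an SE of 0.39 on each day. The strains did not overlap on days 1 and 3, with all ASM pupae the higher, and overlapped on the later days. Ranked by mean, ESM days 8 and 11 stood first, the 5 ASM groups followed, and ESM days 5, 3 and 1 stood last, with 8 of the 9 pairs of neighbours overlapping and ESM day 5 apart from ESM day 3.

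Among themselves the 3 genes did not share a profile. Over the 30 libraries, whose values share 1 normalisation, Pearson's r of the deposited values was 0.47 between GRIK2 and ITPR, -0.11 between GRIK2 and DPP6 and -0.06 between DPP6 and ITPR. Taken as deviations from the group means, r was -0.08, 0.21 and -0.21 in the same order.

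The genes whose deposited values followed each member most closely over the 30 libraries are given as a description. For GRIK2 the gene of highest r among all those tested was Lda.37008 (r = 0.95), for which the tables used here give no annotation. Among 616 genes described in the study's tables, the closest were ABCD3, a peroxisomal transporter (r = 0.88), a gene of the takeout family of small secreted ligand-binding proteins (r = 0.88) and ODO1, 2-oxoglutarate dehydrogenase of the citric acid cycle (r = 0.87). The takeout gene also followed GRIK2 within groups (r = 0.74 of deviations from group means), against 0.58 for ABCD3 and 0.27 for the dehydrogenase. ABCD3 went from 229 ± 26.5 normalised reads (SD, n = 3) on day 1 to 449 ± 58.6 on day 8 in ASM and from 218 ± 45.1 to 433 ± 107 in ESM. The takeout gene was nearly absent on day 1, at 0.99 ± 1.71 in ASM and 1.01 ± 0.87 in ESM, and reached 156 ± 22.1 and 177 ± 42.2 on day 8. Both fell by day 11 to 331 and 340 for ABCD3 and to 41.3 and 56.5 for the takeout gene, and the strains overlapped on day 11 in both. In Lda.37008 and the dehydrogenase they did not, as in GRIK2. On that day Lda.37008 had from 1083 to 6160 normalised reads in ASM and from 901 to 1053 in ESM. The dehydrogenase had from 2698 to 4680 and from 2155 to 2272. Both genes were picked for following GRIK2 over these same libraries, day 11 included, so this likeness is not independent of that choice.

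For ITPR the highest r was 0.80, with Lda.26314, which is not annotated in the tables used here. The closest described genes were an uncharacterised protein gene (r = 0.79), RPOM, the mitochondrial RNA polymerase (r = 0.69), and CENPX, a centromere protein (r = 0.69). As deviations from group means, r with ITPR was 0.69 for Lda.26314 and 0.70, 0.55 and 0.47 for the described genes in order. For DPP6, whose values rest on few reads, the highest r was 0.69 (with Lda.40891, also without annotation). The closest described genes were a speckle-type POZ protein (r = 0.59), an uncharacterised protein gene (r = 0.58) and RFC4, a subunit of the replication clamp loader (r = 0.55). As deviations from group means, r with DPP6 was 0.44 for Lda.40891 and only 0.14, -0.22 and 0.08 for the described genes in order.

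Other genes of calcium handling, excitability, synapses, neuropeptide and amine signalling and phosphoinositide metabolism were followed in 5 lists drawn from the study's tables. Of 45 genes listed, 43 were in the table; KCNH8 and ALLS were not analysed here. Over days 29 of the 43 were called, where 70.4% of all genes tested were. In 16 of them the highest day came after the lowest and in 13 before it, against 35.2% and 35.3% of all genes tested. The median span of day means was 1.24 units over the 43 genes and 1.16 over all genes tested. Many of these genes were themselves listed for expression in these pupae, 22 of the 43, so their strain counts are not independent of the choice. The strain calls and adjusted p values of those 22 genes come from the same pupae and are not independent evidence. Over all genes tested, 12.4% were called higher in ASM and 10.9% lower.

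In the calcium list 9 of 11 genes were called over days, where 70.4% of all genes tested were. CAC1A, the pore-forming subunit of a voltage-gated calcium channel, ran with GRIK2 in having its lowest mean on day 1 (11.4 normalised reads) and its highest on day 8 (62.4; adjusted p = 2.9e-07, limma). The protein kinase C gene KPCA went from 274 on day 3 to 1157 on day 8 (adjusted p = 2.6e-11). MCTP, a membrane protein with calcium-binding domains, was at 151 on day 1 and at its lowest, 34.7, on day 5 (adjusted p = 2.2e-07). By strain 3 were called higher in ASM, namely KPCA, calmodulin (CALM) and the calpain CAN11, where 12.4% of all genes tested were. Another 2 were lower, the endolysosomal cation channel TPC1 and the calmodulin-like CALL4, where 10.9% of all genes tested were. TPC1 and CALL4 were listed by the study for expression in these pupae. GNAQ, the G protein subunit that activates phospholipase C upstream of ITPR, had 565 normalised reads on day 1 and 633 on day 11 and was called neither over days (adjusted p = 0.55) nor by strain (0.65).

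In the excitability list 2 of 5 genes were called over days, both falling from day 1, against 70.4% of all genes tested called. TIPE, known from Drosophila as an auxiliary subunit of the voltage-gated sodium channel, fell from 39.7 normalised reads on day 1 to 3.63 on day 11 (adjusted p = 1.9e-09, limma). One gene of the sodium pump subunit ATPB2 fell from 233 on day 1 to 57.0 on day 8 (adjusted p = 3.1e-09). By strain 3 of the 5 were higher in ASM, against 12.4% of all genes tested, and all 3 came from the study's expression lists. TWK18, a two-pore-domain potassium channel, had 32.9 normalised reads in ASM and 7.94 in ESM (adjusted p = 3.8e-05, limma). Both genes annotated as ATPB2 were also higher (0.017 for the one above and 0.0079 for the other).

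In the synapse list 9 of 11 genes were called over days, against 70.4% of all genes tested. The highest day came after the lowest in 5 of them and before it in 4. SV2C, a synaptic vesicle glycoprotein, had its lowest mean on day 5 (6.00 normalised reads) and its highest on day 8 (170; adjusted p = 3.7e-10, limma). One gene of the related SV2B rose from 82.9 on day 1 to 749 on day 11 (adjusted p = 5.3e-11). CHLE, a cholinesterase, went from 1.26 on day 3 to 34.4 on day 8 (adjusted p = 0.0061). By strain SV2A was called higher in ASM, and CHLE, the other SV2B gene and liprin-alpha (LIPA4) lower. Over all genes tested 12.4% were called higher and 10.9% lower. SV2A, CHLE and that SV2B gene were listed by the study for expression in these pupae, and liprin-alpha was not. All 4 of these calls depended on single libraries: they were lost on omission of any 1 of 21 libraries for SV2A, 23 for the SV2B gene, 13 for CHLE and 5 for liprin-alpha. The call of CHLE was also lost on the log2 scale (adjusted p = 0.067) and with voom (0.15).

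In the receptor list 6 of 7 genes were called over days, 5 of them with the highest day after the lowest. Over all genes tested 70.4% were called. The prostaglandin receptor PE2R3 went from 59.1 normalised reads on day 5 to 356 on day 11 (adjusted p = 8.8e-07, limma), and the histamine-type receptor HRH2 from 1.13 on day 1 to 8.43 on day 11 (adjusted p = 2.9e-06). One sex peptide receptor gene, SPR, fell from 11.9 on day 5 to 1.84 on day 11 (adjusted p = 0.0019). By strain CCH2R, HRH2 and the other SPR gene were called lower in ASM and none higher, against 10.9% and 12.4% of all genes tested. CCH2R and HRH2 were listed by the study for expression in these pupae, and that SPR gene was listed from the inbred lines. The call of CCH2R was lost on omission of any 1 of 17 libraries, on the log2 scale (adjusted p = 0.12) and with voom (0.10), and that of HRH2 on omission of any 1 of 20 libraries and with a common library median (0.051). The call of the other SPR gene held in these fits.

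In the phosphoinositide list, which holds enzymes and regulatory subunits of phosphoinositide and inositol phosphate metabolism, 3 of 9 genes were called over days. The share over all genes tested was 70.4%. MINP1, an inositol polyphosphate phosphatase, rose from 5.06 normalised reads on day 1 to 76.0 on day 11 (adjusted p = 8.0e-10, limma) and was lower in ASM, with 11.9 against 53.6 over all days (adjusted p = 1.9e-08). P3C2A and PI4KA were called over days with small spans of 0.62 and 0.52 units. The call of PI4KA was lost on omission of any 1 of 23 libraries and on the log2 scale (adjusted p = 0.053), and that of P3C2A on omission of any 1 of 5 libraries, with a common library median (0.12) and with day as a number (0.24). By strain 4 genes were higher in ASM, where 12.4% of all genes tested were, namely FYV1 with 303 against 154 and 3 genes annotated as PI3R4. PI42A was lower along with MINP1, where 10.9% of all genes tested were. All 6 came from the expression lists.

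**Figure D3:**
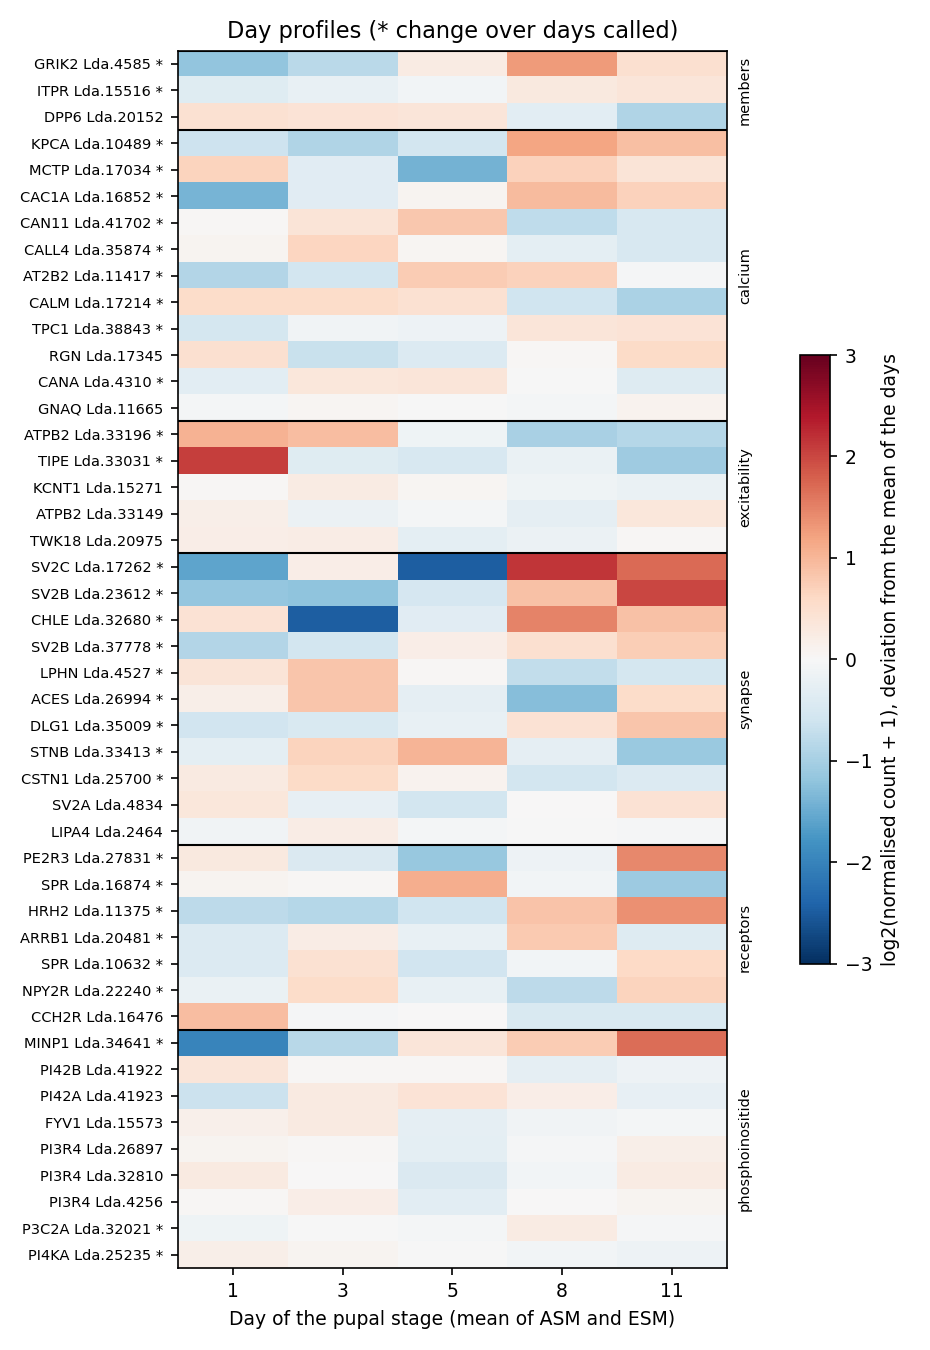
Day profiles of GRIK2, ITPR, DPP6 and the 43 genes of the 5 lists, as log2(normalised count + 1) of each day mean over both strains less the mean of the 5 days (colour scale from -3, blue, to 3, red). Rows are genes grouped by list, columns are days, and asterisks mark genes called for change over days: GRIK2 and ITPR among the 3 members and 29 of the 43 list genes.

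Of the genes in these lists that were not chosen on expression, those from the association study numbered 17, with 2 called higher in ASM, 1 lower and 14 not called, and those from the inbred lines 4, with 1 higher, 1 lower and 2 not called. Over all genes tested, 12.4% were called higher and 10.9% lower. GRIK2 came by the same route as the 17.

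Markers of neurons and synapses (SV2A, SV2C, liprin-alpha, stoned-B and acetylcholinesterase, 5 genes) were all detected in every group. Their summed level in ASM was 118 ± 4.56 normalised reads (SD, n = 3) on day 1, with the lowest pupa at 113, and ranged over pupae from 222 to 297 on day 8, and in ESM it ranged from 127 to 148 on day 1 and from 246 to 326 on day 8. On day 8 the sum was therefore higher than on day 1 in both strains, as GRIK2 was. That rise lay in SV2C, which went from 8.56 to 170 in ASM and from 15.3 to 170 in ESM. Of the 5 markers, 2 in ASM and 3 in ESM had a higher mean on day 8. The other gains were small, in ASM stoned-B from 6.13 to 8.41, and in ESM SV2A from 3.95 to 8.39 and liprin-alpha from 69.5 to 77.8. Acetylcholinesterase fell from 26.5 to 11.2 in ASM and from 40.3 to 12.1 in ESM. Between days 3 and 5, when GRIK2 rose, the summed mean went from 219 to 120 in ASM and from 183 to 125 in ESM. The ASM pupae lay apart, from 177 to 262 on day 3 and from 104 to 136 on day 5. Those of ESM overlapped narrowly, from 139.42 to 248 and from 98.2 to 139.43. Much of the fall in mean lay in SV2C, which went from 55.9 to 8.99 in ASM and from 31.3 to 3.01 in ESM. The ESM mean of SV2C on day 3 rested on replicate 3, at 74.4 beside 5.79 and 13.8. Over both strains, 5 of the 11 genes of the synapse list had a higher mean on day 5 than on day 3, among them both SV2B genes, and 6 a lower one. Of the 6 genes of that list outside the markers, 4 had a higher mean on day 5. On day 11 the summed level ranged from 241 to 309 in ASM and from 176 to 271 in ESM, with 3 of the 5 markers higher in ASM. The part of neuron content in the values of GRIK2, DPP6 and ITPR was not tested.

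The cuticle protein C1B-like followed stage more steeply, from 2.22 normalised reads on day 1 to 10766 on day 8 and 5369 on day 11 in ASM, and from 0.85 to 11348 and 1060 in ESM. Like GRIK2 it had its highest mean on day 8 in both strains and a higher mean in ASM than ESM on day 11, where ASM pupae had from 2106 to 8106 and ESM pupae from 744 to 1533. The part of a difference in developmental stage between the colonies on day 11 in the GRIK2 values was not tested.

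**Figure D4:**
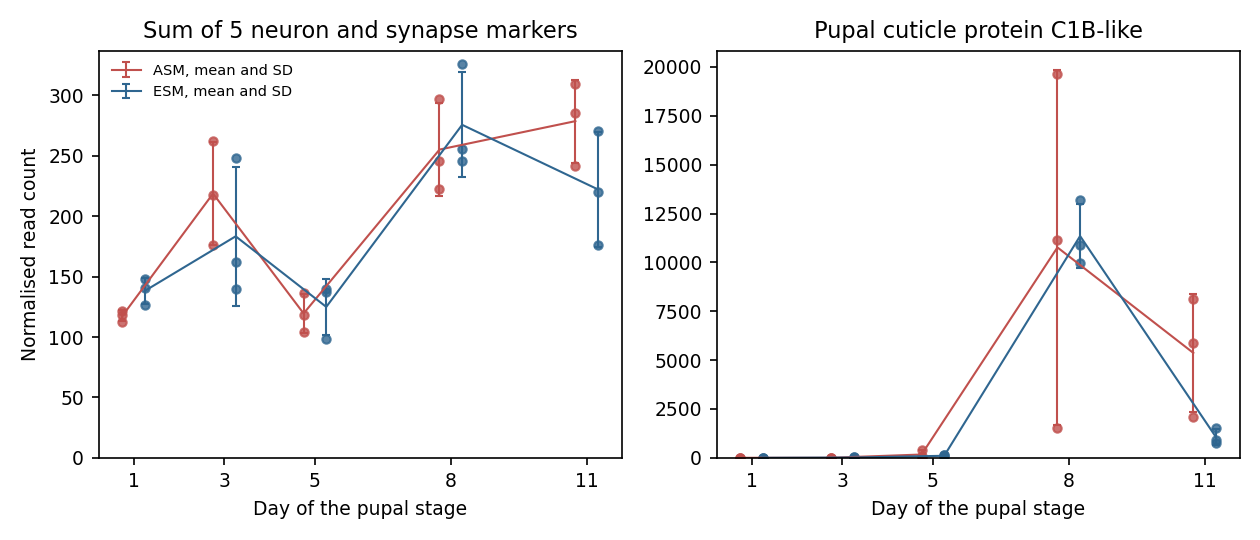
Normalised read count of the summed 5 neuron and synapse markers (left) and of pupal cuticle protein C1B-like (right) against the day of the pupal stage, with 1 point for each pupa and lines through the group means with SD bars (n = 3; ASM red, ESM blue). The summed markers dip in mean on day 5, at 120 and 125, with ESM pupae of days 3 and 5 overlapping narrowly. The cuticle protein is highest on day 8 and lower in ESM than ASM on day 11.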

How the data were processed

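Poly(A) RNA of 30 whole female pupae was sequenced on Ion Proton from a directional library kit. Per the labels and the study's methods, the authors trimmed reads (Trimmomatic 0.36, checked with FastQC 0.11.5), filtered iflavirus reads, mapped the rest to a draft ASM genome, counted them per gene (featureCounts 2.0.0) and applied the variance-stabilising transformation of DESeq2 1.28.1 in R 4.0.2. The deposited values are thus variance-stabilised and not plain log2 values, and the authors gave no counts in the table used here.

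Counts were recovered from the curve that links values of 1 gene across libraries. Between 99.5% and 99.8% of values per library fell within 0.05 of a whole number, and 100% of those below 2500 reads did. Higher counts and library totals are approximate. On the deposited scale a doubling from 20 reads is 1.17 units and from 200 reads 1.63.

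Tests used limma 3.58.1 (R 4.3.3) on the deposited values, with 10 group means, a trended variance and Benjamini-Hochberg adjustment over 19652 genes, those that exceeded the table's lowest value in 3 or more libraries. Change over days and the strain × day interaction were F tests, and strain differences and steps were contrasts. The fitting code was tested on simulated data. P values measure the spread between pupae of 1 colony per strain. Alternatives were a common library median, log2(normalised count + 1), voom on recovered counts, no filter or a stricter one, the replicate number as a block, day as a number, subsets of the libraries and each library left out. Genes of the lists are named where called: at most 3 per list by span of day means and those called by strain. GNAQ and KCNH8 and ALLS are named in addition. "Highest day after the lowest" refers to day means averaged over strains.

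The members, lists and markers were chosen with earlier results of these data known.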

Additional observations from a re-analysis of the deposited data

Results flagged for a closer look

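One list gene differed between strains in its course over days. P3C2A, a class II phosphoinositide 3-kinase, was called for the strain × day interaction (adjusted p = 0.045, limma), the 1 gene of the 43 list genes to be so, where 3.65% of all genes tested were called. In ASM its mean was 192 ± 18.6 normalised reads (SD, n = 3) for day 1 and 200 ± 10.6 for day 8, and the day 11 pupae ranged from 131 to 173. In ESM the mean was 164 ± 8.26 for day 1, 262 ± 45.1 for day 8 and 223 ± 9.68 for day 11. The call was near its threshold: it was lost on omission of any 1 of 22 of the 30 libraries (adjusted p over all 30 fits from 0.010 to 0.086), on the log2 scale (0.061), with voom (0.068), with only genes above the lowest value in every library (0.058), with the replicate number as a block (0.062) and with day as a number (0.097). The study had listed this gene for expression in the same pupae, so the call is not independent evidence.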

How the results depend on the processing

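GRIK2 was called for change over days under all alternatives, within each strain too, with adjusted p (limma) up to 1.1e-05 over both strains, and ITPR likewise for both strains together (up to 0.028). The estimate of GRIK2 by strain was 0.39 with log2(normalised count + 1) and 0.41 with voom, both no longer called, and 0.47 to 0.70 over fits that left out 1 library. For its interaction the adjusted p ranged from 0.039 to 0.38 over those fits. DPP6 was called for change over days with day as a number (0.039). Genes called for the interaction numbered 286 with voom, 325 with only genes above the lowest value in all libraries, 43 with day as a number and 469 to 1216 with 1 library left out, against 718. For list genes, 17 of 220 values under other settings changed their call, as did 149 of 1080 with 1 library left out, and 0 reversed. Genes called by strain on single days ranged, with 1 library left out, from 464 to 755 for day 1, 701 to 2197 for day 3, 311 to 642 for day 5, 669 to 1484 for day 8 and 354 to 1818 for day 11, against 721, 1684, 488, 1249 and 963. With each day fitted alone they numbered 82, 191, 41, 900 and 169. Library medians spanned 0.32 units.

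Replicate numbers did not pair the pupae: 6 of 15 pairs of ASM and ESM pupae with the same day and number had deviations correlated above 0.1, and r ranged from -0.21 to 0.48. With the number as a replicate block 13781 genes were called over days and 736 for the interaction, no call of GRIK2, DPP6 or ITPR changed, and those of SV2A by strain (adjusted p = 0.055), PI4KA over days (0.050) and P3C2A for the interaction (0.062) were lost.

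With at most 20 reads per library, DPP6 values are limited by depth, and the gene was not among those tested under the stricter filter.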
